A study of Canis lupus familiaris with 4 samples.

Results

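In 64 runs of neighbouring accessible sites, chromatin of MDCKII cells was far less accessible 2 h after reseeding than in the mature monolayer, and the 2 mature libraries disagreed on how accessible it had been. The runs held 357 of the 59081 peaks of the series (0.604%). They were chosen by measured values. Counts were scaled to each library's total in peaks (CPM). A peak counted as lost where the mean of the reseeded libraries, plus 0.5 CPM, was at most 0.5 times the mean of the mature libraries, plus 0.5 CPM. By this measure 13.5% of the 57672 peaks on the numbered chromosomes were lost. A run was at least 3 consecutive lost peaks with neighbouring midpoints at most 10 kb apart. Of 254 such runs, with 1073 peaks, those whose median log2 ratio of mature library B to mature library A exceeded 0.3 are described here. The other 190 runs, with 716 peaks, are called the agreeing runs. No lower bound was set for them, and their median ratios ran from -0.35 to 0.28. All loss values and mature B to A ratios of the members were therefore used to choose them and are given as a description, with no test.

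ATAC-seq marks open DNA through the insertion of sequencing adapters by the transposase Tn5. Nucleosome-free promoters and enhancers give narrow peaks, and enhancers of active genes often lie in groups of neighbouring sites. Detaching an epithelial monolayer breaks its cell junctions and polarity, which cells rebuild after they settle again.

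Reseeded cells (n = 2 libraries, A and B) were grown as a monolayer for 7 d, detached and seeded again for 2 h. Mature cells (n = 2 libraries, A and B) were monolayers grown for 7 d. All libraries came from the same line, Madine Darby canine kidney type II, a canine epithelial line, in the same medium with serum. Totals in peaks were 16906566 and 24015663 counts in reseeded A and B and 8759513 and 6253706 in mature A and B, so mature B was the shallowest library. Separate cultures for A and B are not stated in the labels. The sample names begin with one code in reseeded and another in mature libraries, and any batch behind these codes and reseeding cannot be told apart. No gene annotation of the build was used here, so the runs are given by position alone and epithelial marker genes could not be looked up.

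Most runs stood at a like level within each library, and all were lower in reseeded than in mature cells. The run medians had a mid value of 1.55 CPM in reseeded A and 1.72 CPM in reseeded B, against 12.4 CPM in mature A and 18.7 CPM in mature B. A median mature level between 10 and 30 CPM was found in 56 of the 64 runs, and 3 runs were above 100 CPM. Over single peaks, the reseeded mean was a median 8.55% of the mature mean, against 26.3% in the agreeing runs and 30.01% at 6711 lost peaks outside any run of 3. At every member both reseeded libraries lay below both mature libraries, which the rule nearly forces, and 44.2% of all peaks did so. In 35 of the 64 runs the median log2 fold, reseeded over mature, was -3 or lower, as it was in 20 of the 190 agreeing runs.

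**Figure D1:**
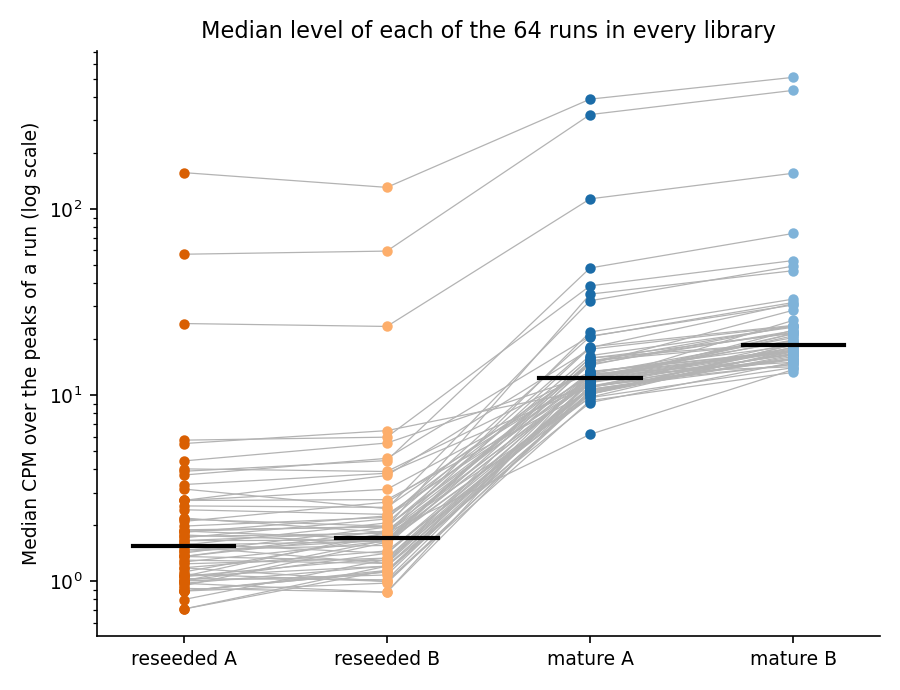
Median CPM over the peaks of each run (log scale) in the reseeded and mature libraries; each point is 1 of 64 runs, grey lines join a run across libraries and black bars are the medians over runs. The bars stand at 1.55 and 1.72 CPM in reseeded A and B and at 12.4 and 18.7 CPM in mature A and B, and 3 runs stand above the rest in every library.

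The run with the most peaks lay on chromosome 27 from 13140350 to 13174553 (CanFam3.1), with 28 peaks in 34.2 kb. Its median level was 1.74 CPM in reseeded A and 1.81 CPM in reseeded B, against 21.9 CPM in mature A and 32.9 CPM in mature B. Mature B exceeded mature A at all 28 peaks, by a log2 ratio of 0.38 to 1.12, and the loss was even along the run, with log2 folds of -3.82 to -3.24. Its strongest mature peak, from 13163775 to 13164275, had 2.31 and 2.71 CPM in reseeded A and B and 32.9 and 49.6 CPM in mature A and B (means 2.51 ± 0.283 and 41.2 ± 11.8, SD, n = 2 each). At this peak the groups did not overlap and mature B exceeded mature A, both of which the rule favours.

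On chromosome 7 from 80946834 to 80963745 a run of 21 peaks ended 10.6 kb before the last peak of the chromosome. Medians were 3.90 and 4.46 CPM in reseeded A and B, against 48.3 and 74.0 CPM in mature A and B. The peak from 80948853 to 80949353, the fifth strongest mature peak of the whole table, had 30.2 and 29.3 CPM in reseeded A and B and 371 and 594 CPM in mature A and B. Here the reseeded libraries were nearly equal, and the mature libraries, whose ratio the rule used, differed by a log2 ratio of 0.68.

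A run of 20 peaks on chromosome 6 from 43061656 to 43081016 had medians of 1.45 and 1.67 CPM in reseeded A and B, against 15.2 and 23.6 CPM in mature A and B. Mature B was higher at all 20 peaks, as it was at all 21 on chromosome 7. The next runs by size were 13 peaks on chromosome 9 (starting at 10356340), 12 on chromosome 18 (at 49091860), 11 on chromosome 14 (at 1056595) and 9 on chromosome 13 (at 40250718). Their run medians of the log2 ratio of mature B to A were 0.43, 0.55, 0.48 and 0.76, and those of the log2 fold were -2.46, -3.24, -2.77 and -3.27 in that order.

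Within 2 of these runs the strongest mature peak did not share the disagreement. The chromosome 9 peak from 10368886 to 10369386 had 20.6 and 20.4 CPM in reseeded A and B and 80.03 and 81.6 CPM in mature A and B, a mature log2 ratio of 0.03. The chromosome 14 peak from 1073947 to 1074447 had 16.6 and 18.2 CPM in reseeded A and B, against 38.8 and 40.5 CPM in mature A and B, a mature log2 ratio of 0.06. Both kept more of their mature level than the median of their run, with log2 folds of -1.95 and -1.17. The strongest peaks on chromosomes 6, 18 and 13 did share it, with mature log2 ratios of 0.71, 0.59 and 0.82 and log2 folds of -3.58, -3.21 and -3.56.

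**Figure D2:**
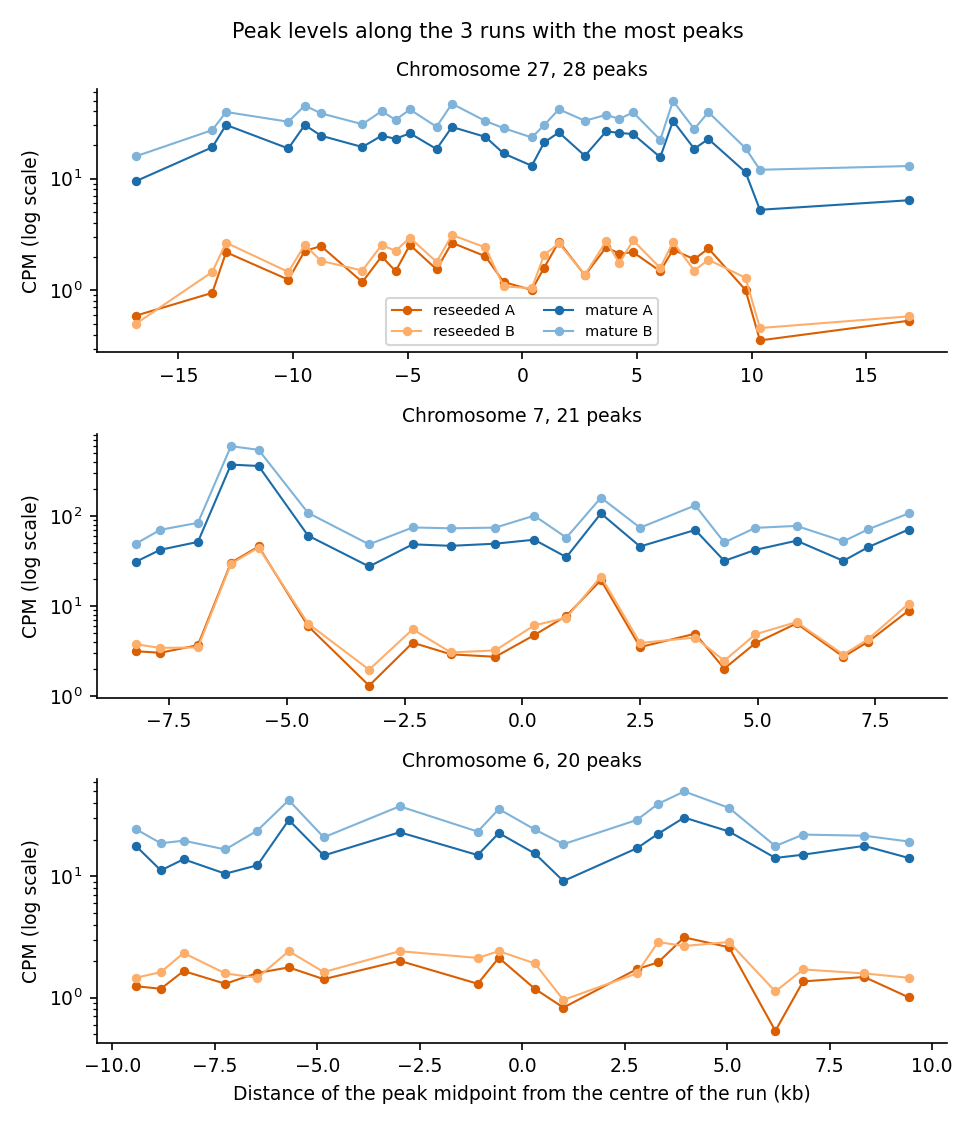
CPM of every peak (log scale) against its distance from the centre of the run in kb, for the 3 runs with the most peaks; each line is a library, reseeded in orange and mature in blue. The mature lines run side by side with B above A at all 28, 21 and 20 peaks, and the reseeded lines lie below them at every peak and cross each other.

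In the longer runs, peaks that were stronger in one library were mostly the stronger ones in the others. In the 12 runs of at least 8 peaks, Pearson's r of log2(CPM + 0.5) across peaks of a run was 0.779 to 0.995 between mature B and mature A, with a median of 0.929. Between the reseeded mean and the mature mean it was 0.551 to 0.954, with a median of 0.893, and between reseeded B and reseeded A 0.306 to 0.991, with a median of 0.927. In the 52 shorter runs the medians were 0.929, 0.875 and 0.964, but r was below 0 in 5, 7 and 4 of them in the same order. These are descriptions over 3 to 28 neighbouring peaks that share sequence context and libraries. In the 28-peak run r was 0.969 for mature B with mature A and 0.947 for the reseeded mean with the mature mean, so that peaks that were strong in the mature monolayer were also the stronger ones among the weak reseeded values.

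A few of the runs held most of the strongest mature peaks of the series. By mean mature CPM, 9 of the 10 strongest and 17 of the 25 strongest of all 59081 peaks were members, and by mean reseeded CPM 4 of the 10 strongest. The 17 strong mature peaks all lay in runs on chromosomes 1, 4 and 7, while the median mature level over all members was 17.7 CPM. The rule itself favours high mature and low reseeded values.

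The 8 peaks of the run on chromosome 7 from 80966547 to 80974343, whose last peak was also the last of that chromosome in the table, had medians of 157 and 131 CPM in reseeded A and B and 390 and 510 CPM in mature A and B. Its peak from 80967949 to 80968449 was the strongest of the table in both states, with 289 and 332 CPM in reseeded A and B and 727 and 917 CPM in mature A and B. The loss there was milder than in most members, with a log2 fold of -1.40 at this peak and a run median of -1.49. This run and the 21-peak run beside it made up 29 peaks in 27.5 kb.

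The other 2 runs above 100 CPM are singled out after their values were seen. Peaks of the run on chromosome 4 from 10462001 to 10466740 had 39.2 to 104 CPM in reseeded A and 39.0 to 93.8 CPM in reseeded B, against 224 to 407 CPM in mature A and 307 to 561 CPM in mature B. Its 6 mature log2 ratios on the unpadded CPM lay between 0.40 and 0.48. On chromosome 1 from 60596137 to 60599992 the range was 6.51 to 107 CPM in reseeded A and 5.62 to 105 CPM in reseeded B, against 23.6 to 388 CPM in mature A and 32.3 to 495 CPM in mature B. The mature B to A ratio thus varied little within the chromosome 4 run. With 0.5 CPM added its SD was 0.0299, the lowest of the 64 runs, whose mid SD was 0.186. The peaks of this 4.74 kb run kept 10.6% to 25.6% of the mature level. The peak that kept least had the highest ratio, 0.48, and the peak that kept most had the lowest, 0.40.

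The size of the mature disagreement varied moderately between runs. Run medians of the log2 ratio of mature B to A ranged from 0.32 to 1.10, with quartiles of 0.45 and 0.70. Mature B was the higher library at 350 of 357 members (98.0%), and at 54.8% of all peaks on numbered chromosomes. The ratio at single members had an SD of 0.246, against a median counting SD of 0.181 for these counts. A log2 ratio above 0.3 was found at 315 members, or 88.2%. Over all peaks of the numbered chromosomes 20% had such a ratio, as did 12.4% of lost peaks outside runs, and nothing is read from the members' count, since the rule set it.

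The highest ratio was at a run of 3 peaks on chromosome 17 from 61601065 to 61607281, with medians of 1.06 and 1.83 CPM in reseeded A and B and 6.16 and 13.8 CPM in mature A and B. These are the lowest counts in mature A of any run, with a median of 54 counts a peak. The runs just inside the bound, starting at 84135598 on chromosome 2, at 72287455 on chromosome 8 and at 37426474 on chromosome 9, had ratios of 0.32, 0.33 and 0.34. Just outside it stood agreeing runs starting at 54211923 on chromosome 20 (0.28), at 25636822 on chromosome 18 (0.27) and at 114683306 on chromosome 1 (0.24). No gap in the ratios set the members off from the agreeing runs.

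Within the members, runs with a larger mature disagreement tended to have the deeper loss. Across the 64 runs Pearson's r between the median mature log2 ratio and the median log2 fold was -0.400 and Spearman's rho -0.453, against -0.075 and -0.102 across the 190 agreeing runs. The runs share the same 4 libraries and both quantities use the mature counts, so these are descriptions. The rule also cut on both quantities, and its bound of 0.3 on the ratio made both sets of runs. Nothing is therefore read from the contrast of members with agreeing runs, in the coefficients or by class of loss. Among members with a log2 fold of -3 or lower (221 peaks) the median mature log2 ratio was 0.65, among those between -3 and -2 (91 peaks) 0.52, and among those between -2 and -1 (45 peaks) 0.33. In the agreeing runs it was 0.00, -0.01 and -0.01 in the same classes. Lost peaks outside runs had a median of 0.06 in the class of deepest loss, where 33.0% of 696 exceeded 0.3, and -0.01 in the class of mildest loss, where 8.23% of 4397 did.

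The deepest run median, a log2 fold of -4.04, belonged to 3 peaks on chromosome 38 from 21096432 to 21098896, at 1.89 and 1.96 CPM in reseeded A and B and 34.9 and 46.7 CPM in mature A and B. The mildest, -1.07, was at 3 peaks on chromosome 25 from 51617891 to 51622126, the last peaks of that chromosome in the table, with 5.50 and 6.45 CPM in reseeded A and B and 10.7 and 15.8 CPM in mature A and B. Against mature B alone the members' median log2 fold was -3.43, and against mature A alone -2.79. The rule, which used both libraries, nearly fixes a loss against each of them.

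**Figure D3:**
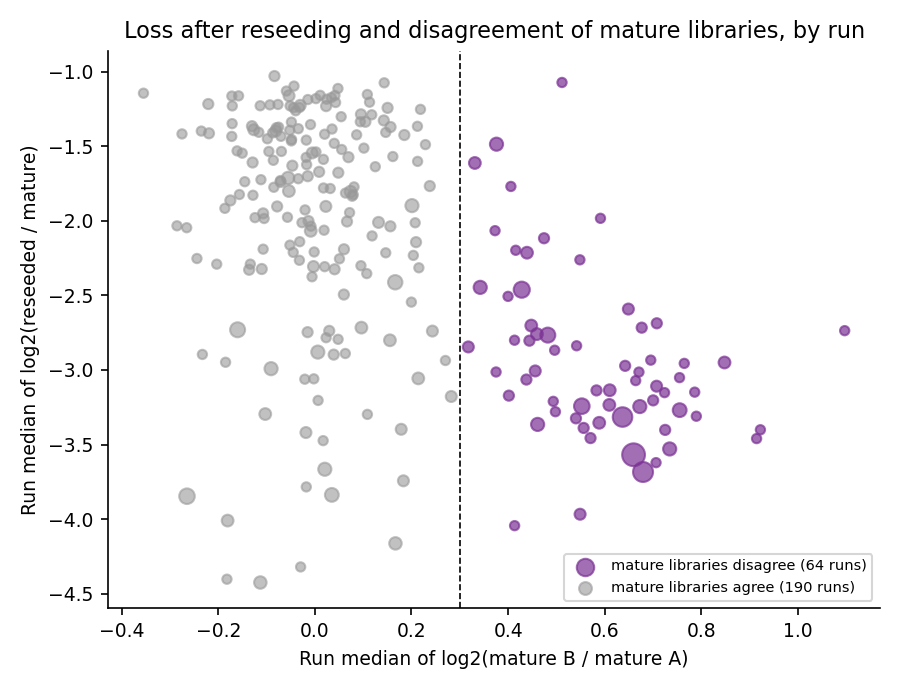
Run median of the log2 fold, reseeded over mature, against the run median of the log2 ratio of mature B to mature A; each point is a run, its area grows with the number of peaks, and the dashed line marks the bound of 0.3. The 64 disagreeing runs (purple) lie between 0.32 and 1.10 with folds of -4.04 to -1.07. The 190 agreeing runs (grey) gather near 0, from -0.35 to 0.28, with folds of -4.43 to -1.03.

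The B to A ratio of the reseeded libraries was not used by the rule, which took only their mean. No size is compared here with the mature ratio, which the rule set above its bound. The median log2 ratio of reseeded B to reseeded A was 0.11 over the members, against 0.03 in the agreeing runs and 0.00 over all peaks of the numbered chromosomes. Reseeded B was the higher library at 236 of 357 members (66.1%), at 57.8% of the peaks of the agreeing runs and at 50.6% of all peaks. The run median was above 0 in 49 of 64 runs, and in 123 of 190 agreeing runs.

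Low counts limit this comparison. The SD over members was 0.259, less than the median counting SD of 0.360 at single members. Summed over all members, the log2 ratio of reseeded B to A was 0.02 (exact 95% counting interval 0.01 to 0.04). Over all agreeing runs it was also 0.02 (0.01 to 0.04). Leaving out the 3 member runs above 100 CPM gave 0.10 (0.07 to 0.13). No run was left out of the agreeing runs, of which 1 had a mature level above 100 CPM. They are therefore not compared with this value. For mature B over A, whose ratio chose the runs, the sums were 0.50 (0.49 to 0.51) with all runs and 0.58 (0.56 to 0.60) without those 3. At a log2 fold of -3 or lower, lost peaks outside runs had a reseeded median of 0.11, close to the 0.15 of the members in that class, whereas agreeing runs had 0.05. With 1 library on each side there is no test of these differences, and the intervals cover at most counting error, taking counts as independent.

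In the strongest run the reseeded libraries disagreed as well, and in opposite directions at its ends. Along the 8 peaks toward the end of chromosome 7 the log2 ratio of reseeded B to A was 0.19, 0.31, 0.20, 0.08, -0.01, -0.16, -0.44 and -0.47. At the last peak, from 80973843 to 80974343, reseeded B had 109 CPM and reseeded A 151 CPM, from 2616 and 2547 counts, and the exact 95% counting interval of the ratio was -0.55 to -0.39. At the second, from 80967095 to 80967595, reseeded B had 86.7 CPM and reseeded A 69.8 CPM, with an interval of 0.21 to 0.42. The mature B to A ratio kept its sign throughout, at 0.26 to 0.52. The rule chose the run by its mature ratio, so nothing is read from this contrast with the reseeded libraries. Mature B exceeded mature A at every peak in 58 of the 64 runs. Among 893 peaks of the whole table with at least 1000 counts in each reseeded library, of which 11 were members, the SD of this ratio was 0.0686, and 2 peaks lay beyond 0.4 in either direction, the last 2 peaks of this run.

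**Figure D4:**
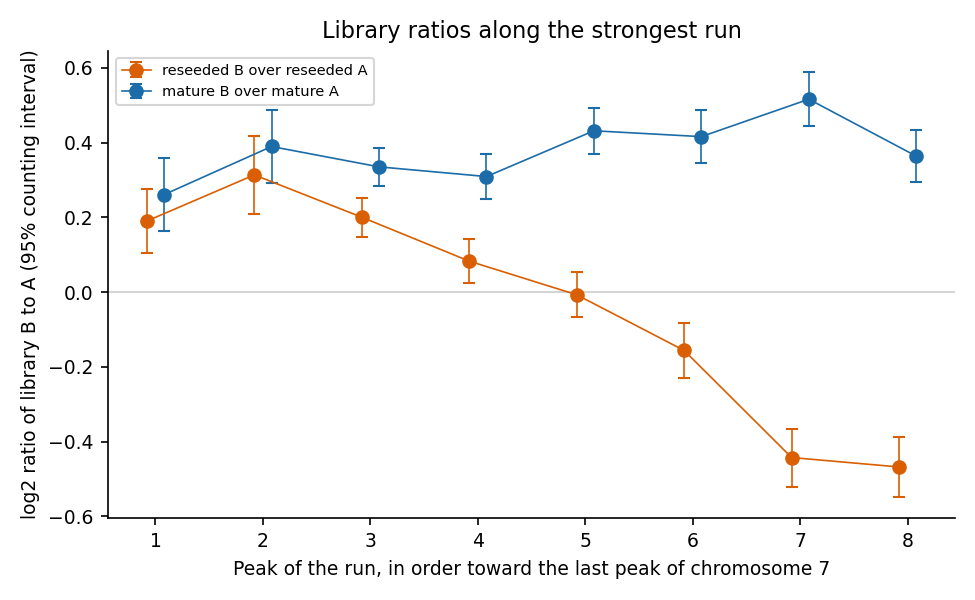
Log2 ratio of library B to library A, from CPM without an added value, at the 8 peaks of the run at the end of chromosome 7, with exact 95% counting intervals; reseeded in orange, mature in blue. The reseeded ratio passes from 0.31 at the second peak to -0.47 at the eighth, and the mature ratio stays between 0.26 and 0.52. The rule chose the run by its mature ratio.

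Members were packed closely. The median distance between neighbouring midpoints in a run was 927 bp, against 1402 bp in the agreeing runs and 2719 bp over all neighbours at most 10 kb apart, and 54.3%, 40.7% and 22.2% of these distances were at most 1000 bp. No peaks overlapped, the smallest distance in the runs being 506 bp for peaks of 501 bp. At least 5 peaks were held by 25 of 64 runs, against 32 of 190 agreeing runs. The number of other peaks within 500 kb either side was a median 54 for members, 71 in the agreeing runs and 46 for all peaks of the numbered chromosomes. These shares were not tested between the kinds of run.

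Members lay on 22 of the 38 numbered chromosomes. Chromosome 9 held 55 of them in 10 runs, or 15.4% of the members against 6.17% of the table, followed by chromosomes 7 (35 peaks), 18 (34), 14 (32) and 27 (28). Runs often had another close by: 34 of the 64 lay in 11 stretches whose runs were at most 1 Mb apart. One stretch on chromosome 14, from 733130 to 1075215, held 6 runs with 32 members and 29 other peaks. Its members had medians of 1.63 and 1.83 CPM in reseeded A and B, against 14.0 and 17.9 CPM in mature A and B, while the 29 other peaks had a median log2 fold of -0.45 and a median mature log2 ratio of 0.21. Another, on chromosome 18 from 49084133 to 49148991, held 5 runs with 31 members among 12 other peaks, whose medians were -0.48 and 0.25. On chromosome 13 between 40250718 and 40698920, 2 runs with 17 members faced 1 other peak, which had a log2 fold of 2.53.

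Several runs stood at the ends of chromosomes. Within 100 kb of the first base lay 5 runs, on chromosomes 1, 6, 17, 22 and 32, and within 100 kb of the last peak lay 6, on chromosomes 6, 7, 17 and 25. Of the 190 agreeing runs, 1 lay within 100 kb of a first base and 1 within 100 kb of a last peak. Within 1 Mb of either end there were 17 of 64 runs (26.6%) and 14 of 190 agreeing runs (7.37%). Those 17 runs lay on 9 chromosomes, and several belonged to the chromosome 14 stretch above, so they are not all separate places. The first 3 peaks of the chromosome 6 table, from 458 to 3315, had medians of 1.36 and 1.79 CPM in reseeded A and B, against 18.0 and 31.0 CPM in mature A and B. The runs within 1 Mb of an end had a mid log2 ratio of mature B to A of 0.68, against 0.55 for the others, and mid log2 folds of -3.15 and -2.96. Position was counted from the peak table, since chromosome lengths were not used here, and was not tested.

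Peaks beside the runs were not members, and their mature ratio was set against that of peaks beside the agreeing runs. Within 50 kb of a run, 374 peaks belonged to no lost run. Their median log2 fold was -0.43, the same as the -0.43 of 1839 peaks beside the agreeing runs. Of the peaks beside the members 24.9% were themselves lost, against 18.6% beside the agreeing runs. The median mature log2 ratio was 0.12 beside the members, against 0.04 beside the agreeing runs and 0.03 over all peaks of the numbered chromosomes. The ratio beside the members was 0.17 within 10 kb (124 peaks), 0.09 from 10 to 20 kb (65 peaks), 0.10 from 20 to 50 kb (185 peaks) and 0.04 from 50 to 200 kb (510 peaks). The share of peaks above 0.3 was 35.5%, 24.6%, 24.3% and 20% in these classes. Beside the agreeing runs it was 16.2%, 13.8%, 17.2% and 18.5%. The ratio of these peaks was not used by the rule, but each lies near a run chosen for it, and they share its libraries. Some agreeing runs lay close to a member run, so a peak can lie near both kinds. On chromosome 9 an agreeing run ended at 10351467 and a member run began at 10356340.

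At 61 of the 128 sides of the runs the next peak stood within 10 kb but was not lost. These were 58 different peaks, with medians of 20.5 CPM in reseeded and 28.0 CPM in mature cells and a median mature log2 ratio of 0.12. At another 61 sides the next peak was beyond 10 kb, and at 6 there was none before the end of the chromosome.

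**Figure D5:**
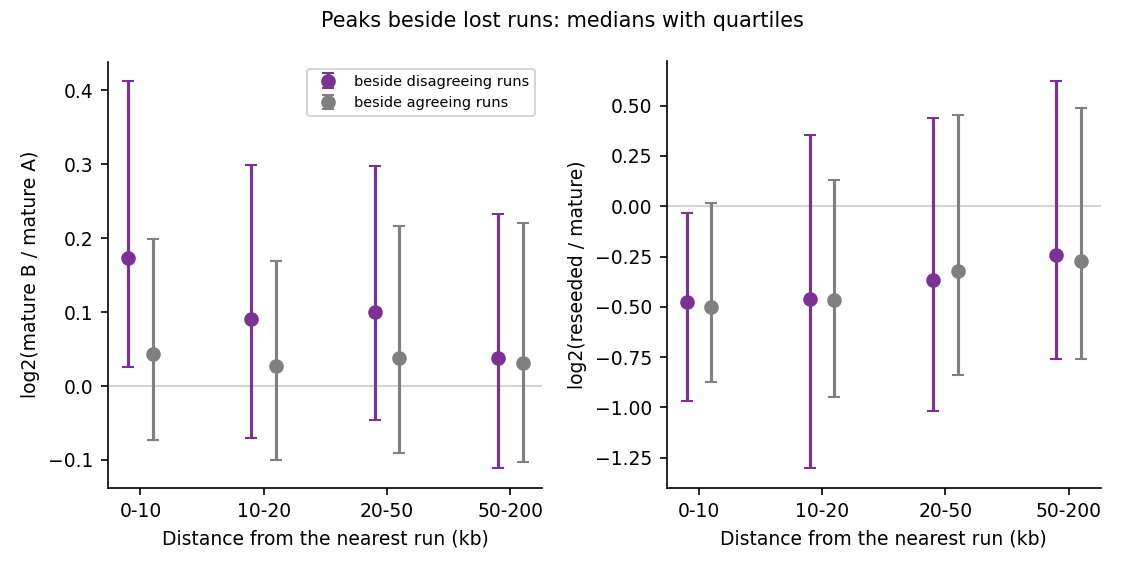
Log2 ratio of mature B to mature A (left) and log2 fold, reseeded over mature (right), of peaks in no lost run. Distance in kb is from the nearest run of the kind shown. Points are medians and bars quartiles, beside the 64 disagreeing runs in purple and the 190 agreeing runs in grey. Within 10 kb the median mature ratio was 0.17 beside the disagreeing and 0.04 beside the agreeing runs, and the folds of the 2 kinds overlapped throughout.

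In edgeR's quasi-likelihood test over all 59076 tested peaks, 356 of the 357 members, all of which passed the filter on low counts, were called lower at an adjusted p under 0.05, where 41.8% of all peaks were. At least 2-fold lower were again 356, against 15% of all peaks. The rule used this contrast, so nothing is read from these counts. Fitted log2 folds of the members had a median of -3.54 and a range of -4.71 to -1.05, against a median of 0.00 over all peaks of the numbered chromosomes. The member that was not called lies on chromosome 8 from 72302117 to 72302617, with 5 and 3 counts in reseeded A and B and 7 and 8 counts in mature A and B (log2 fold -2.34, SE 1.28, adjusted p = 0.0874 by edgeR's quasi-likelihood test). It is the weakest member, at the edge of a run whose other peaks were stronger. Together the members took 0.291% and 0.296% of the counts of reseeded A and B, against 1.28% and 1.82% of those of mature A and B.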

How the data were processed

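ATAC-seq was measured in 2 reseeded and 2 mature libraries of MDCKII cells. The authors deposited raw counts, not normalized, for 59081 peaks of 501 bp in all 4 libraries. Per the submitters' processing notes, Bowtie2 and MACS2 and the build CanFam3.1 were used. The sources used here do not give versions or settings, how duplicates and reads that fit several places were handled, any Tn5 offset, the unit counted, or how peaks entered the table. Such handling can change counts in repeated sequence. The table names chromosomes by sequence accession, read as 1 to 38 and X. Starts were read as counted from 0 and are printed counted from 1.

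CPM was the count over the column total. Ratios and folds are log2 values with 0.5 CPM added, reseeded over mature or B over A, unless stated. The deposited counts were fitted in R 4.3.3 with edgeR 4.0.16 (filterByExpr, trimmed-mean factors, quasi-likelihood test, no block, Benjamini-Hochberg adjustment over all 59076 tested peaks), and the SE of a fold was taken from its F statistic. The fit and the rule were tested on simulated data. DESeq2 1.42.0 was an alternative. Descriptions used Python 3.11.15, numpy 2.4.6, pandas 2.3.3 and scipy 1.17.1, with figures by matplotlib 3.10.9. Counting intervals are exact Clopper-Pearson intervals at 95%. They take counts as independent and leave out all error but that of counting. The labels name no molecular identifiers, and the handling of duplicates and the unit counted are not known. The intervals may therefore be too narrow even for counting error. A count of 3 equals 0.177 and 0.125 CPM in reseeded A and B and 0.342 and 0.48 CPM in mature A and B.

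The members and all comparisons were chosen with earlier results of these data known. Named by rule were the 8 runs with the most peaks (of 5 runs tied at 8 peaks, that with the smallest chromosome number) with the strongest mature peak of each, the runs with the highest and lowest ratio and fold, the 3 runs just inside and outside the bound, and the strongest reseeded member. P-values measure only how these libraries vary, which may be technical. The library letters were not shown to pair the samples.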

Additional observations from a re-analysis of the deposited data

How the results depend on the processing

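Of 55 values of the main counts and medians recomputed under alternatives, 48 stayed within 1.5 times the count or within the spread. For log2 folds the spread was 0.371, the SD of the members' medians over pairings of a reseeded with a mature library. Leaving out a library shifts the fold by these same differences, so staying within this spread is nearly built in. For the ratios it was a half-width of the counting interval, 0.0119 in mature and 0.0166 in reseeded libraries. With at least 5 peaks a run there were 227 members in 25 runs, and with a bound of 0.5 on the mature log2 ratio 229 members in 39 runs, as both settings admit fewer runs by construction. Adding 1 in place of 0.5 CPM gave a median mature log2 ratio of 0.58, because a larger added value shrinks ratios. Leaving out the 3 strongest runs, an alternative chosen after seeing the data, gave 0.61, as those runs had lower ratios. Beside the runs it was 0.15 within 20 kb instead of 50 kb, as fewer, nearer peaks enter. With each library left out of the loss criterion in turn, 342 to 380 members in 60 to 68 runs were found. Over the unchanged 357 members the median log2 fold without 1 library was -3.43 to -2.79. The mature ratio cannot be had without a mature library. A replicate block by letter called 24298 peaks lower, 357 of them members, and across peaks the B minus A difference in reseeded cells correlated at 0.0314 with that in mature cells. Each of the 8 named peaks kept its call under each of 9 alternatives. The rule chose the members by this contrast, so nothing is read from the calls of members or named peaks. With reseeded medians of 18 to 66 counts a peak in reseeded A in 7 of the 8 runs with the most peaks, depth limits the reseeded ratio at single peaks.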

Other observations

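Chromosome X, which the rule left out, held 19 lost runs by the same conditions, and in 15 of them (78.9%), with 117 peaks, the median log2 ratio of mature B to A was above 0.3, against 64 of 254 (25.2%) on the numbered chromosomes. The mid ratio of those 15 runs was 0.56, and that of the 64 runs was also 0.56. Both sets hold only runs above 0.3, so nothing is read from this likeness. Over all 1409 peaks of chromosome X the median ratio was 0.05, against 0.03 over the 57672 peaks of the numbered chromosomes.

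Mature B was not the higher library at 7 members, in 6 runs. Runs of at least 5 peaks and runs of 3 or 4 peaks had much the same mature ratio, with mid values of 0.55 (25 runs) and 0.57 (39 runs), and mid log2 folds of -3.11 and -3.01.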
